A study of Homo sapiens with 6 samples.

Results

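The Hippo effectors described here are 10 genes: the kinases *LATS1* and *LATS2*, the coactivators *YAP1* and *WWTR1*, the factors *TEAD1* to *TEAD4*, and the target genes *CCN1* and *CCN2*. They were picked by symbol, from the GENCODE v44 names of the gene identifiers, out of 62700 genes in each file. All 10 were found once, and all passed the filter on low values, a mean of at least 1 TPM over the libraries. RNA–Seq had been run on 6 libraries of SK-Hep1, a human liver tumor line that the study calls endothelial-derived. The 3 control libraries are titled shControl with the genotype WT, and the 3 knockdown libraries are titled shRAB30-DT with the genotype RAB30-DT knockdown. The study's methods describe stable knockdown lines made with lentiviral pLKO.1 vectors and puromycin, and control vectors whose backbone they do not name. The labels name neither the shRNA sequence nor separate cultures, so p-values here measure the spread between these libraries, which may be technical. Levels are TPM, which divide the reads of a gene by its length before each library is brought to the same sum. Genes can thus be set beside each other, within the limit of GC trends that differ between libraries, given below.

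The Hippo pathway is a kinase cascade that restrains organ size, and the liver is one of the organs in which it has been studied most. STK3 and STK4 with their scaffold SAV1 activate LATS1 and LATS2, which phosphorylate YAP1 and its paralog TAZ, the product of *WWTR1*. The phosphorylated coactivators are held in the cytoplasm or degraded, whereas the unphosphorylated forms enter the nucleus and act through TEAD factors, because they do not bind DNA themselves. *CCN1* and *CCN2* encode secreted matricellular proteins and are widely used as readouts of this activity. Control of YAP1 and TAZ is largely at the level of the protein, which mRNA values do not measure.

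TEAD factors bind the letters GGAATG, and the promoters of the members were searched for them on both strands. Windows from 250 bases before to 50 bases from the gene start were taken from RefSeq on GRCh38.p14, where 7 of the 10 members had 10 windows. *TEAD1*, *TEAD4* and *CCN1* had no entry. The motif was found in *CCN2*, *YAP1* and *LATS2*, and not in the windows of *WWTR1*, *TEAD2*, *TEAD3* and *LATS1*. The windows are shown because *CCN2* is a reference target of the pathway. Capitals mark the motif.
CCN2 at chr6:131951455-131951483, minus strand: gtggggaGGAATGcgaGGAATGtccctgt
CCN2 at chr6:131951529-131951548, minus strand: agacggaGGAATGctgagtg
YAP1 at chr11:102110278-102110297, plus strand: gtgtgcaGGAATGtagcaac
LATS2 at chr13:21061565-21061584, minus strand: cgcccgtGGAATGccaacaa
*CCN2* held the motif 3 times, starting at −169, −104 and −95 from its start, *YAP1* once at −162 and *LATS2* once at 10. Of all 35116 windows, 14.0% held at least 1 motif and 0.128% held at least 3. A match describes the letters and does not show that a TEAD factor binds there.

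*WWTR1* was lower in knockdown than in control cells, and it was the only one of the 10 members whose change passed the test. *YAP1*, *CCN1* and *CCN2* did not pass it. In knockdown cells the mean *WWTR1* level was 0.472 of that in control cells. Of the 10 members, 1 was called by limma at a Benjamini–Hochberg adjusted p under 0.05, against 1.04% of the 14020 genes tested (0.371% higher and 0.670% lower). In 2 members, *WWTR1* and *LATS1*, all knockdown libraries lay under all controls, and in no member above them. Groups without overlap were found for 23.3% of tested genes (13.4% with knockdown lower, 9.89% with knockdown higher), so this count of 2 is near the background. The median log2 fold change of the members was −0.14, and that of all tested genes −0.04.

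*RAB30-DT* itself, the targeted lncRNA, ran from 11.51 to 18.16 TPM in control and from 6.5 to 11.94 TPM in knockdown libraries, with overlap (log2 fold change −0.55, adjusted p = 0.355 from limma). This value covers the whole gene, with 7523 bases of exons. The study separately reports a qPCR check of the knockdown in SK-Hep-1 cells. The libraries differed in how their values moved with the GC content of genes. Spearman's rho of a library's deviations with GC content, across genes, was −0.61, 0.29 and 0.49 across control libraries 1 to 3, against −0.52, 0.016 and 0.34 across knockdown libraries 1 to 3. Of 10 hepatocyte marker genes, 5 were at 0 TPM in every library, *ALB* and *HNF4A* among them, and only *SERPINA1* had a mean of at least 1 TPM. No gene of 8 endothelial markers had a mean of at least 1 TPM, with *PECAM1* at most 0.01 TPM and *KDR* and *ERG* at 0, whereas 7 of 8 mesenchymal markers did, with *VIM* above 3793 TPM in every library.

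**Figure D1:**
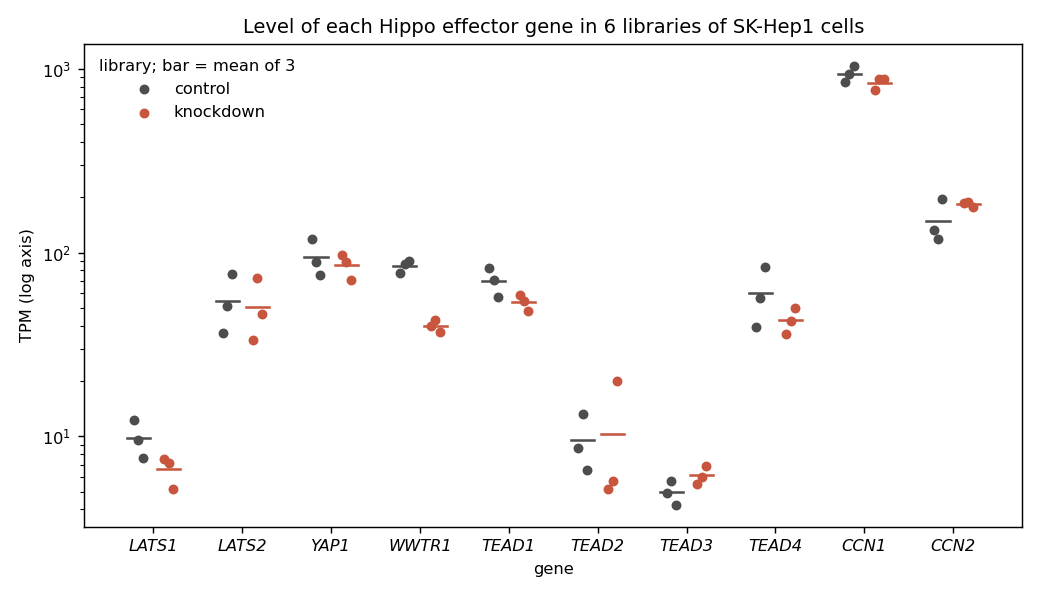
Level of each member in TPM (vertical log axis) in the 3 control (grey) and 3 knockdown (red) libraries, where points are libraries and bars are means. *WWTR1* is the member with a clear gap between the groups, from 77.54 TPM in the lowest control to 42.75 TPM in the highest knockdown library.

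*YAP1* and *WWTR1* encode the coactivators, a pair of paralogs that share the TEAD factors as partners. *YAP1* (ENSG00000137693.14) is at chr11:102110447-102233424 of hg38 (plus strand), and *WWTR1* (ENSG00000018408.15) at chr3:149517235-149736714 (minus strand). *WWTR1* had 77.54, 86.50 and 89.52 TPM across control libraries 1 to 3 and 40.01, 42.75 and 36.92 TPM across knockdown libraries 1 to 3. The groups were far apart, and the libraries within each group were close together. The means were 84.5 ± 6.23 TPM (SD, n = 3) and 39.9 ± 2.92 TPM (SD, n = 3). This gave a log2 fold change of −1.06 (standard error 0.16, 95% interval from −1.42 to −0.71, adjusted p = 0.0285 from limma). Of the 14020 tested genes, 1.93% had a lower log2 fold change. In bulk RNA, fewer cells that express a gene and less RNA of it per cell cannot be told apart.

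*YAP1* had 119.12, 88.86 and 75.14 TPM across control libraries 1 to 3 and 96.98, 89.18 and 70.63 TPM across knockdown libraries 1 to 3. The groups overlapped, with control replicate 1 above every knockdown library and knockdown replicate 3 below every control. The log2 fold change was −0.13 with a 95% interval from −0.62 to 0.37 (adjusted p = 0.811 from limma), so a fall or rise of moderate size remains within the error. Its sign turned without control replicate 1 (0.054), without knockdown replicate 3 (0.0051) and with quantile normalization (0.019). *YAP1* was highest in replicate 1 and lowest in replicate 3 of both groups. Its exons hold 43.3% GC, and replicate 1 is the library of each group with a negative GC trend.

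The size of the *WWTR1* change was stable, whereas its call was not. Leaving out 1 library at a time moved the log2 fold change only between −1.12 and −1.01. The call was lost without control replicate 2 (adjusted p = 0.144) and without knockdown replicates 1 (0.121), 2 (0.153) or 3 (0.157), and without a filter on low values (0.0535). It was kept in the other 14 of the 19 alternatives.

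Since both coactivators were measured in the same library, their ratio does not depend on the scaling between libraries. The *WWTR1* to *YAP1* ratio was 0.651, 0.973 and 1.19 across control libraries 1 to 3, against 0.413, 0.479 and 0.523 across knockdown libraries 1 to 3. *WWTR1* was thus close to *YAP1* in 2 control libraries, above it in 1 of them, and well below it in every knockdown library. The mean log2 ratio was lower in knockdown cells by 0.96, with an SD of 0.44 in control and 0.17 in knockdown libraries. An exact two-sided permutation test gave p = 0.1, the smallest p that 3 against 3 libraries can give. *WWTR1* made up 39.4%, 49.3% and 54.4% of the summed TPM of both genes across control libraries 1 to 3, against 29.2%, 32.4% and 34.3% across knockdown libraries 1 to 3. The sum itself was 179 ± 16.3 TPM (SD, n = 3) in control and 125 ± 15.7 TPM (SD, n = 3) in knockdown cells, without overlap (exact permutation p = 0.1).

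**Figure D2:**
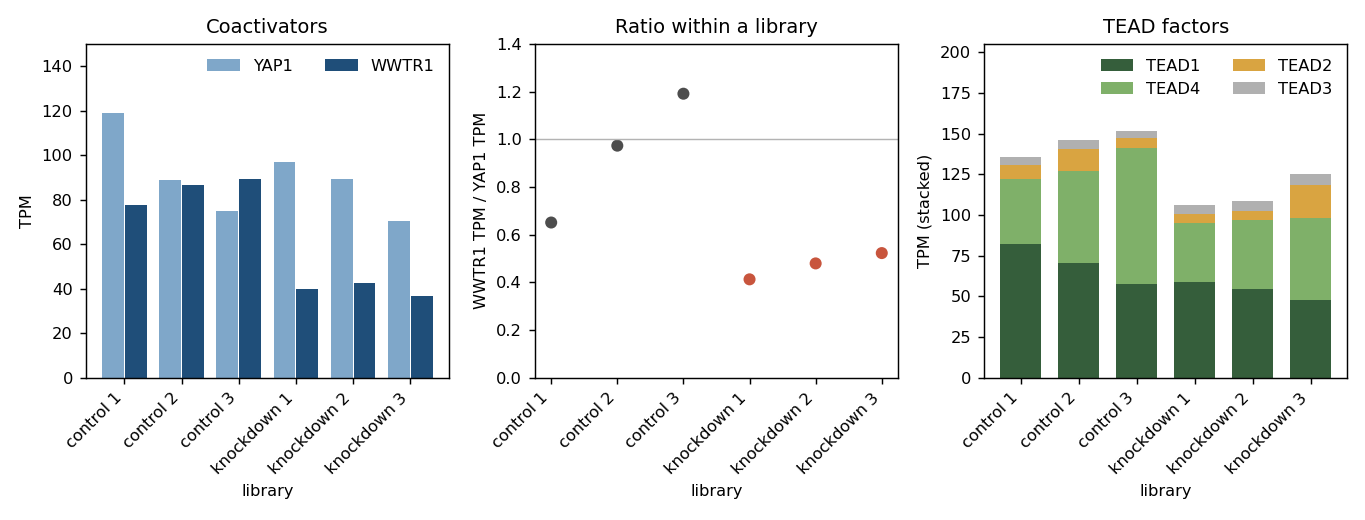
Left, TPM of *YAP1* and *WWTR1* in each library; middle, the *WWTR1* to *YAP1* ratio (grey control, red knockdown, line at 1); right, TPM of the TEAD genes stacked by library. The ratio is between 0.413 and 0.523 in knockdown and between 0.651 and 1.19 in control libraries, and the stacked TEAD level is lower in every knockdown library.

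*TEAD1* and *TEAD4*, the TEAD factors that dominated in these cells, had lower means after knockdown, and neither passed the test. The 4 paralogs share the DNA-binding TEA domain and the site for YAP1 and TAZ. On hg38 *TEAD1* (ENSG00000187079.20) is at chr11:12674421-12944737 (plus strand), *TEAD2* (ENSG00000074219.14) at chr19:49340595-49362457 (minus strand), *TEAD3* (ENSG00000007866.22) at chr6:35473597-35497079 (minus strand) and *TEAD4* (ENSG00000197905.10) at chr12:2959330-3040676 (plus strand). *TEAD1* had 82.30, 70.44 and 57.41 TPM across control libraries 1 to 3 and 59.01, 54.40 and 47.99 TPM across knockdown libraries 1 to 3. The groups overlapped by a narrow margin, with knockdown replicate 1 above control replicate 3. limma estimated a log2 change for *TEAD1* of −0.36 (standard error 0.19, adjusted p = 0.368).

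*TEAD4* had 39.57, 56.71 and 83.46 TPM across control libraries 1 to 3 and 36.09, 42.52 and 50.21 TPM across knockdown libraries 1 to 3. In both groups replicate 1 was lowest and replicate 3 highest, the reverse of *TEAD1*, and the exons hold 63.3% GC in *TEAD4* and 42.9% in *TEAD1*. For *TEAD4* limma gave a log2 change of −0.42 (standard error 0.28, adjusted p = 0.487). It ran from −0.68 to −0.15 as single libraries were left out.

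*TEAD2* and *TEAD3* were minor. *TEAD2* had 8.62, 13.3 and 6.58 TPM across control libraries 1 to 3 and 5.16, 5.72 and 19.89 TPM across knockdown libraries 1 to 3. Knockdown replicate 3 alone held the highest value, at more than any control library, and the other knockdown libraries were below every control. The log2 fold change of *TEAD2* was −0.09 (95% interval from −1.18 to 1.00) and became −0.66 without knockdown replicate 3. *TEAD3* ran from 4.24 to 5.73 TPM in control and from 5.52 to 6.93 TPM in knockdown libraries, and limma gave it 0.27 on the log2 scale (adjusted p = 0.562).

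Summed over *TEAD1* to *TEAD4*, the level was 135, 146 and 152 TPM across control libraries 1 to 3 and 106, 109 and 125 TPM across knockdown libraries 1 to 3. The highest knockdown sum was thus under the lowest control sum. The mean log2 sum was lower by 0.35 (SD 0.084 in control and 0.13 in knockdown libraries, exact two-sided permutation p = 0.1). With median-of-ratios scaling the difference was 0.33 and the groups did not separate fully (exact permutation p = 0.2). *TEAD1* made up 37.8% to 60.8% of the control sums and 38.4% to 55.8% of the knockdown sums, which overlapped. The small share of *TEAD3* was 2.80% to 3.92% in control and 5.22% to 5.54% in knockdown cells, without overlap.

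*LATS1* and *LATS2*, the kinases that phosphorylate YAP1 and TAZ, did not pass the test. *LATS1* (ENSG00000131023.13) is at chr6:149658153-149718105 and *LATS2* (ENSG00000150457.9) at chr13:20973036-21061586, both on the minus strand. *LATS1* had 12.28, 9.52 and 7.61 TPM across control libraries 1 to 3 and 7.55, 7.15 and 5.15 TPM across knockdown libraries 1 to 3. The groups did not overlap, but control replicate 3 and knockdown replicate 1 were separated by only 0.06 TPM. limma estimated a log2 change for *LATS1* of −0.50 (standard error 0.24, adjusted p = 0.346).

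*LATS2* had 36.46, 51.29 and 76.51 TPM across control libraries 1 to 3 and 33.48, 72.25 and 46.10 TPM across knockdown libraries 1 to 3. It varied by more than 2 times within each group, and the groups overlapped throughout. The log2 fold change was −0.12 (95% interval from −0.90 to 0.66), and its sign turned in 4 alternatives. *LATS2*, which is itself a YAP1 and TAZ target, stood above *LATS1* in every library, by 2.97 to 10.1 times in control and 4.43 to 10.1 times in knockdown libraries. The exons hold 52.0% GC in *LATS2* and 39.2% in *LATS1*.

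*CCN1* and *CCN2*, the target genes, did not pass the test. *CCN1* (ENSG00000142871.18) is at chr1:85580761-85584589 (plus strand) and *CCN2* (ENSG00000118523.6) at chr6:131948176-131951372 (minus strand). *CCN1* was the most abundant member, with 843.79, 936.51 and 1035.29 TPM across control libraries 1 to 3 and 765.43, 878.37 and 875.02 TPM across knockdown libraries 1 to 3. The groups overlapped, and the log2 fold change was −0.16 (95% interval from −0.45 to 0.13, adjusted p = 0.565 from limma). A fall of *CCN1* as large as that of *WWTR1* is outside this interval.

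*CCN2* had 132.81, 119.05 and 194.90 TPM across control libraries 1 to 3 and 186.71, 189.14 and 177.30 TPM across knockdown libraries 1 to 3. The knockdown libraries were tight, and control replicate 3 was above all of them. Its log2 fold change was 0.34 (95% interval from −0.12 to 0.79, adjusted p = 0.430 from limma), and 0.55 without control replicate 3 (adjusted p = 0.115). The *CCN2* to *CCN1* ratio spanned 0.127 to 0.188 in control and 0.203 to 0.244 in knockdown cells, higher in every knockdown library (exact permutation p = 0.1). The antisense lncRNA *LINC01013* overlaps *CCN2* and was at most 2.46 TPM, and it is uncertain how reads were divided between strands. The remaining genes that overlap a member on hg38 were at most 5.26 TPM in any library.

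By mean level in control cells the order was *CCN1*, *CCN2*, *YAP1*, *WWTR1*, *TEAD1*, *TEAD4*, *LATS2*, *LATS1*, *TEAD2* and *TEAD3*. The ranges of neighbours overlapped from *CCN2* down to *LATS2*, and again for *LATS1* and *TEAD2*. In knockdown cells *WWTR1* moved from rank 4 to rank 7, behind *TEAD1*, *LATS2* and *TEAD4*. There *CCN1*, *CCN2* and *YAP1* were each separated from the next member, the ranges from *TEAD1* to *WWTR1* overlapped one to the next, and so did those of *TEAD2*, *LATS1* and *TEAD3*.

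Because GC content moved with the libraries, the fit was repeated on values from which that GC trend had been taken out, library by library. Then *WWTR1*, *TEAD1* and *LATS1* passed the test, all lower, so 3 of 10 members were called against 8.50% of tested genes (3.80% higher and 4.69% lower). limma gave *TEAD1* −0.39 on the log2 scale (adjusted p = 0.0447) and *LATS1* −0.54 (adjusted p = 0.0472). *WWTR1* was at −1.08 (adjusted p = 0.0217). The changes hardly moved, while the standard error fell from 0.19 to 0.091 for *TEAD1* and from 0.24 to 0.13 for *LATS1*. With limma's arrayWeights, *WWTR1*, *TEAD1* and *CCN2* passed it, against 23.0% of tested genes (9.18% higher and 13.8% lower), with *CCN2* higher at 0.57 (adjusted p = 0.0131). With the replicate number as a block, 1 member, *WWTR1*, was called, against 6.14% of tested genes (2.22% higher and 3.92% lower).

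**Figure D3:**
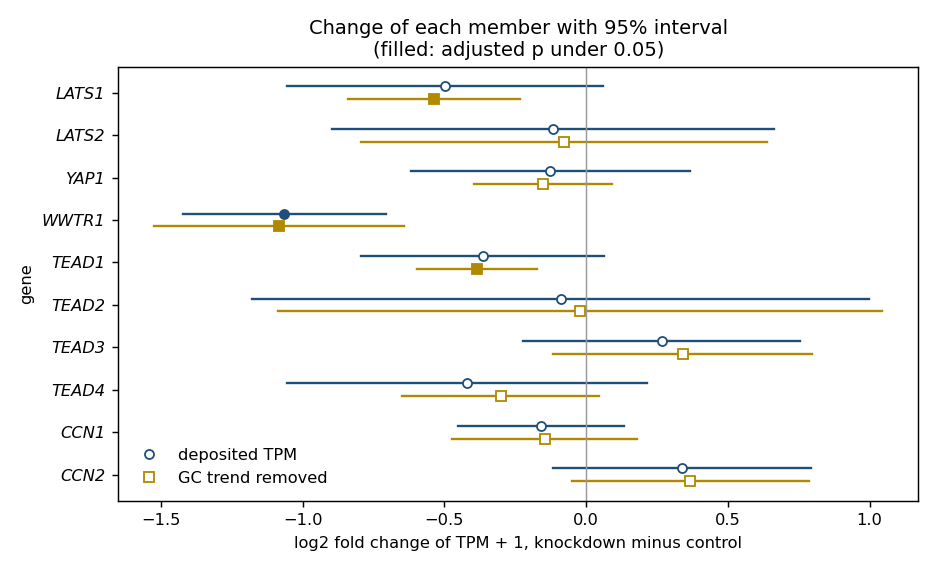
Log2 fold change of TPM + 1, knockdown minus control (horizontal axis), of each member with its 95% interval, for the deposited TPM (circles) and with the GC trend removed (squares), filled where the adjusted p is under 0.05. *WWTR1* is filled in both, and *LATS1* and *TEAD1* are filled only with the GC trend removed.

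Of the other genes of the pathway, 76 were listed and 69 were tested. Only *NF2* passed the test, against 1.04% of all tested genes. It encodes merlin, the membrane-linked tumor suppressor that brings LATS kinases to their activators. *NF2* had 75.09, 79.28 and 82.88 TPM across control libraries 1 to 3 and 38.98, 38.55 and 34.41 TPM across knockdown libraries 1 to 3. The groups were far apart, as for *WWTR1*, with a log2 change of −1.06 in limma (standard error 0.15, adjusted p = 0.0285). *NF2* lost its call in the same alternatives as *WWTR1*: without a filter, without control replicate 2, and without any 1 of the knockdown libraries (adjusted p from 0.0535 to 0.153).

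Of the 26 upstream regulators tested, 17 were lower and 9 higher, and 5 were lower without overlap of the groups, where 13.4% of tested genes were. *WWC1*, which encodes the scaffold KIBRA that works with merlin, had 66.69, 73.45 and 88.88 TPM across control libraries 1 to 3, against 43.91, 46.84 and 46.66 TPM across knockdown libraries 1 to 3. Its log2 fold change of −0.72 did not pass the test (adjusted p = 0.0922 from limma), and did with the GC trend removed (−0.66, adjusted p = 0.0202). With the GC trend removed 2 of the 26 were called, against 8.50% of all tested genes, and with arrayWeights 5, against 23.0%. Both are smaller shares than those of all tested genes. *LIMD1*, a LIM protein that can bind and inhibit LATS kinases, had a log2 fold change of −0.91 (adjusted p = 0.194), with 7.77 TPM in knockdown replicate 3 against 16.82 and 18.26 TPM in the other knockdown libraries. The upstream kinases *STK3* and *STK4* had log2 fold changes of 0.01 and 0.22.

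Of the 13 genes of the STRIPAK phosphatase complex, which counters STK3 and STK4, 0 passed limma's test and 1 had an unadjusted p under 0.05, a smaller share than the 16.8% of all tested genes. That gene was *PPP2CA*, the catalytic subunit, at −0.29 on the log2 scale (adjusted p = 0.291). With the GC trend removed and with arrayWeights, 0 were called as well. Of the 11 genes for retention and turnover of YAP1 and TAZ, 10 were lower and 1 higher. In limma's test 0 passed and 4 had an unadjusted p under 0.05, where 16.8% of all tested genes did. With the GC trend removed 3 were called, against 8.50% of all tested genes, and with arrayWeights 4, against 23.0%. *YWHAB*, *YWHAH* and *YWHAE* encode phosphoserine-binding proteins that hold YAP1 in the cytoplasm. They had log2 fold changes of −0.59, −0.49 and −0.47 (adjusted p = 0.152, 0.115 and 0.185 from limma). Each was lower without overlap of the groups, as were 13.4% of all tested genes. *YWHAQ*, *YWHAG* and *YWHAZ* of the same family were at −0.29, −0.11 and −0.06, with overlap, as had *SFN*, described below. *YWHAZ* was the most abundant, with a mean of 1028 TPM in control and 976 TPM in knockdown cells.

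Of the 22 YAP1 and TAZ target genes, *LATS2*, *CCN1* and *CCN2* included, 14 were lower and 8 higher, with a median log2 fold change of −0.10. In limma's test 0 passed and 2 had an unadjusted p under 0.05, a smaller share than the 16.8% of all tested genes. The 1 called with the GC trend removed and the 4 called with arrayWeights were also smaller shares than the 8.50% and 23.0% of all tested genes. The 2 with an unadjusted p under 0.05, *F3* and *ANKRD1*, were higher in every knockdown library. Such a rise without overlap was found for 9.89% of all tested genes, so 2 of 22 is near the background. *F3*, the gene of tissue factor, had 61.44, 41.26 and 55.11 TPM across control libraries 1 to 3, against 109.69, 105.65 and 86.89 TPM across knockdown libraries 1 to 3. The log2 change of *F3* in limma was 0.94 (standard error 0.20, adjusted p = 0.0726), and 0.91 with the GC trend removed, where it passed (adjusted p = 0.0223). *ANKRD1*, a nuclear ankyrin repeat protein, had 0.51 (adjusted p = 0.273). For no target gene did all knockdown libraries lie under all controls, where they did for 13.4% of all tested genes.

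Of the VGLL cofactors, which compete with YAP1 and TAZ for TEAD factors, *VGLL1* and *VGLL2* were at 0 TPM in every library. *VGLL3* had 5.26, 3.80 and 2.87 TPM across control libraries 1 to 3, against 10.18, 6.70 and 8.77 TPM across knockdown libraries 1 to 3, higher without overlap. Its log2 fold change of 0.95 did not pass limma's test (adjusted p = 0.128), and did with the GC trend removed (adjusted p = 0.0272). *VGLL4* was the most abundant VGLL gene, with a mean of 19.6 TPM in control and 27.1 TPM in knockdown cells. Its groups overlapped, and its log2 fold change of 0.47 did not pass the test (adjusted p = 0.314 from limma). The remaining CCN genes, *CCN3* to *CCN6*, were at most 0.43 TPM and were not tested.

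**Figure D4:**
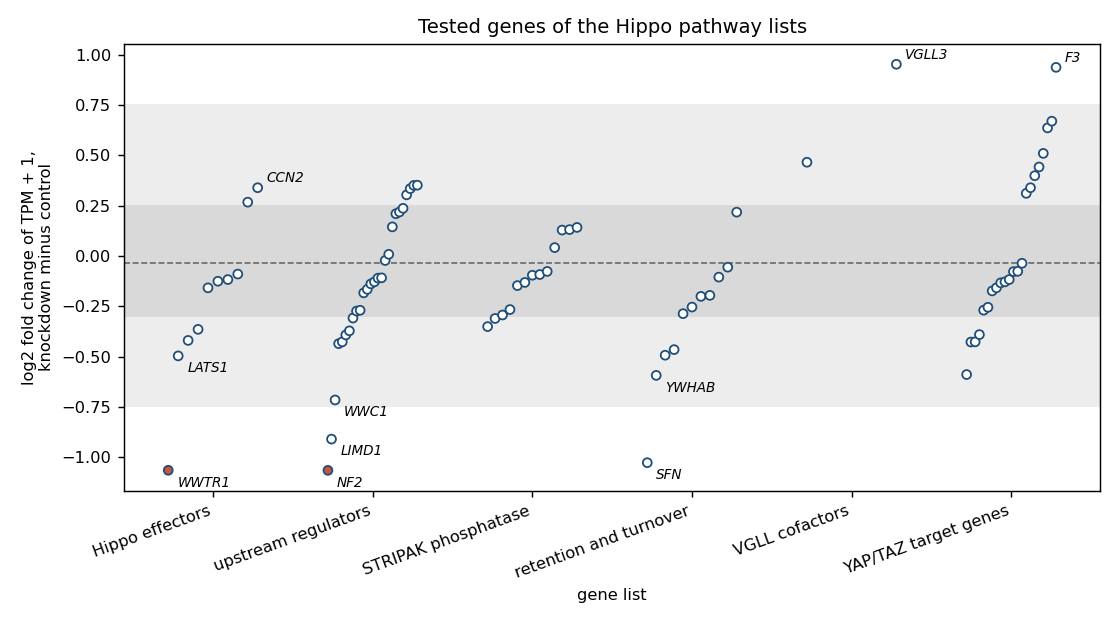
Log2 fold change of TPM + 1, knockdown minus control, of each tested gene of 6 Hippo pathway lists, where red points passed the test, bands hold the middle 50% and 90% of all tested genes and the dashed line is their median. *WWTR1* and *NF2* are the red points, both at −1.06, and *F3* and *VGLL3* are highest.

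Over the 6 libraries, the tested genes whose log2(TPM + 1) correlated most with that of *WWTR1* were *NF2* (Pearson's r = 0.997), *TMEM98* (0.996) and *TBC1D22A* (0.996). These 4 genes share a gap between the groups and little spread within them. *TMEM98* also passed the test (log2 fold change −1.27, adjusted p = 0.0252 from limma) and *TBC1D22A* did not (−0.81, adjusted p = 0.0712). Most like *YAP1* were *CACHD1* (0.997), *VEZF1* (0.996) and *SFR1* (0.996), which repeat the order of the replicates in both groups and overlap between them. The correlations describe 6 libraries in 2 groups, chosen as the highest among 14020 genes.

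**Figure D5:**
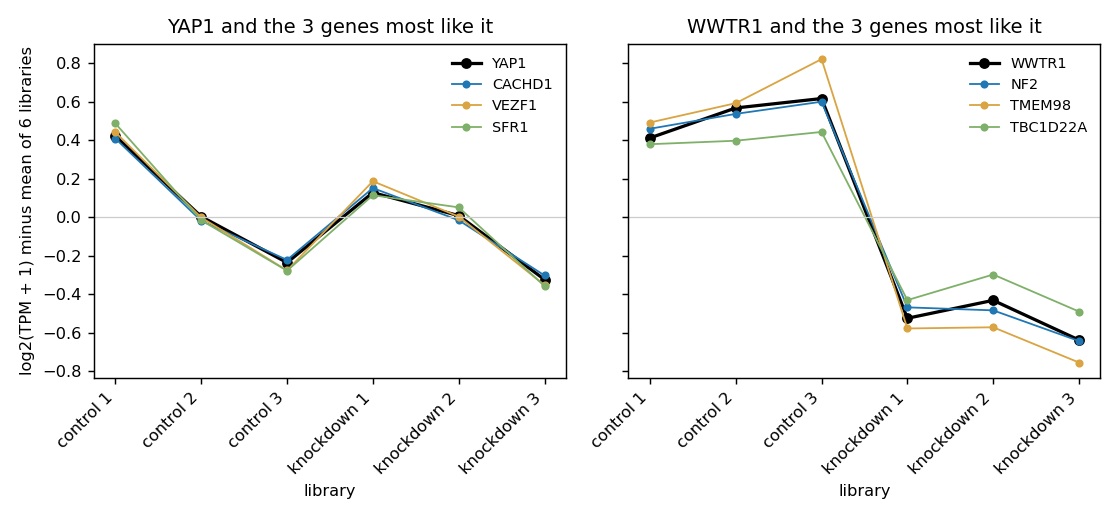
log2(TPM + 1) minus its mean over the 6 libraries, for *YAP1* (left) and *WWTR1* (right) with the 3 genes most like each; lines only join the points of a gene. The *WWTR1* set splits by group, and the *YAP1* set does not.

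The 7 letters GAGTGAA were also searched, on the sense strand, in the 3′UTR of each member's canonical GENCODE v44 transcript. They were taken from earlier results of these data, so what follows is a description only. Of tested protein-coding genes 12.4% hold it, with 21.9% of those whose 3′UTR has 3000 to 4000 bases and 53.7% of those with at least 7000. *WWTR1* does not hold it in its 3573 bases, nor *YAP1* in its 3487. Among the members it occurs 2 times in *TEAD1* (7518 bases) and once in *LATS1* (3579 bases). Among the upstream regulators it occurs once each in *NF2* (3799 bases), *WWC1* (3289 bases), *TAOK1* (8884 bases) and *MOB1B* (6114 bases). It occurs 2 times each in *FRMD6* (2701 bases) and *WTIP* (12038 bases), and 4 times in *LIMD1* (9285 bases). *FRMD6*, *WTIP*, *TAOK1* and *MOB1B* had log2 fold changes of −0.11, −0.27, −0.02 and 0.30, with overlap of the groups. The sites of *TEAD1*, *LATS1*, *NF2* and *WWC1* are printed, with the 7 letters in capitals. These are the members that carry it, and the called gene *NF2* with its partner *WWC1*.
TEAD1 at chr11:12937367-12937395, plus strand: aaatcttgtttGAGTGAAgtcattttttc
TEAD1 at chr11:12942938-12942966, plus strand: gtaaggaagacGAGTGAAaaggacaagaa
LATS1 at chr6:149658944-149658972, minus strand: ccattgaaatgGAGTGAAaacattggttc
NF2 at chr22:29694925-29694953, plus strand: tttccccagctGAGTGAAgagcccagccc
WWC1 at chr5:168470977-168471005, plus strand: tggtataaagtGAGTGAAacccaggcaga
Of all 79 tested pathway genes with a 3′UTR, 13 hold the letters, and 12 of these were lower and 1 higher, with a median log2 fold change of −0.27. The 66 without them had 42 lower and 24 higher, with a median of −0.12. Over tested protein-coding genes with a 3′UTR the medians were −0.14 with and −0.05 without the letters. Of all 14020 tested genes, with or without the letters, 7531 were lower and 6489 higher. That split was not counted for only the tested genes that hold the letters. As the letters came from these same data, the split of the 13 is not a test of them. As longer 3′UTRs hold the letters more often, the division into genes with and without them also follows length. A part of the letters in these changes was not tested.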

How the data were processed

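Per the study's methods, the authors used fastp for trimming, STAR for alignment and RSEM for quantification. The deposited values are TPM of each gene and library, rounded to 2 decimals. GEO's processing notes name HISAT2 (version 2.0.5) and hg38 instead of STAR, and which aligner made the files was not settled. All 62700 versioned identifiers matched GENCODE v44, used here for names, positions and GC content on hg38. Read numbers cannot be recovered from TPM, and the depth of the libraries is thus unknown.

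Libraries were grouped by title. On the log2(TPM + 1) scale, 14020 genes whose mean reached 1 TPM were fitted with limma 3.58.1 in R 4.3.3 (eBayes with trend). A call needed a Benjamini–Hochberg adjusted p, over all these genes, under 0.05. A fold change on this scale understates that of low genes. Ratios and sums were compared by exact permutation (scipy 1.17.1). The members and lists were chosen with earlier results of these data known. Named were the 10 members, *RAB30-DT*, list genes past the threshold, per list up to 3 with the largest rise and 3 with the largest fall without overlap of the groups, and the 3 genes most like *YAP1* and *WWTR1*. Other genes were named after their values were seen. Alternatives were pseudocounts of 0.1 and 5, other filters, scalings and variance models, arrayWeights, a replicate block, removal of GC trends (loess, span 0.3) and each library left out in turn. The filter was applied again in each.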

Additional observations from a re-analysis of the deposited data

How the results depend on the processing

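The count of members called, 1 (*WWTR1*), was 3 with arrayWeights and 3 with the GC trend removed, 0 without a filter on low values, and from 0 to 1 as single libraries were left out, with 0 without control replicate 2 or any 1 knockdown library, where 1 member had an unadjusted p under 0.05. The count over all genes, 146 (52 higher, 94 lower), was 13 without a filter, 3218 with arrayWeights, 1191 with the GC trend removed, and between 12 and 489 as single libraries were left out, the extremes being without control replicates 2 and 1. It was 18, 15 and 16 without knockdown replicates 1, 2 and 3. Median-of-ratios scaling gave 60 higher and 69 lower, and quantile normalization 78 and 83. For these counts the cause was not tested.

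Signs turned only for members short of the threshold. With quantile normalization *YAP1* was at 0.019, *LATS2* at 0.021 and *CCN1* at 0.034. *LATS2* was at 0.24 with arrayWeights. As single libraries were left out, *YAP1* ran from −0.28 to 0.054, *TEAD2* from −0.66 to 0.22 and *LATS2* from −0.40 to 0.15. The *WWTR1* to *YAP1* log2 ratio stayed lower by 0.76 to 1.20, and the TEAD sum by 0.31 to 0.43.

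Both groups number their replicates 1 to 3. Same-numbered libraries had correlations of their deviations from the group mean of 0.41, 0.036 and 0.28. As deviations within a group are tied by its mean, these values are not independent, and libraries with unlike numbers were not compared. The titles give only replicate numbers, so no pairing was assumed in the main fit. With a replicate block 861 genes were called, and 1028 with block and GC trend removal together. *WWTR1* was the member called in both, and *TEAD1* and *LATS1*, called with the GC trend removed alone, were not called with the block added. The ratio and the TEAD sum keep the same difference with the block, lower by 0.96 and 0.35 on the log2 scale (exact p = 0.25 each, the smallest 3 pairs allow).

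With no read numbers, depth cannot be weighed.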

Other observations

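Marker genes of cell identity were read beside the Hippo effectors. *VIM*, the intermediate filament of mesenchymal cells, had 3997.41, 3857.48 and 3793.03 TPM across control libraries 1 to 3, against 4724.21, 4784.16 and 4335.79 TPM across knockdown libraries 1 to 3, higher in every knockdown library (log2 fold change 0.25, adjusted p = 0.225 from limma). *THY1*, a surface protein of mesenchymal cells, was lower in every knockdown library, with 101.76 to 148.02 TPM in control and 76.02 to 98.74 TPM in knockdown cells (−0.54, adjusted p = 0.226). *SERPINA1*, a secreted hepatocyte protease inhibitor, had 18.11 to 23.96 TPM in control and 28.25 to 37.19 TPM in knockdown cells (0.59, adjusted p = 0.192). None of these passed the test. With arrayWeights *SERPINA1*, *VIM* and *THY1* did (adjusted p = 0.0192, 0.0170 and 0.0113), where 23.0% of all tested genes did. With a replicate block *SERPINA1* did (adjusted p = 0.0489), where 6.14% of all tested genes did. The groups of these genes did not overlap, as was so for 23.3% of all tested genes. Of the 7 mesenchymal markers tested, 5 had a positive and 2 a negative log2 change (median 0.07). The 8 together had 3954 to 4214 TPM in control and 4497 to 4943 TPM in knockdown libraries, a sum that is nearly all *VIM*. Their part in the *WWTR1* change was not tested.

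*SFN*, which encodes a phosphoserine-binding protein of the same family as *YWHAB*, had 86.67, 162.78 and 221.20 TPM across control libraries 1 to 3, against 52.51, 76.23 and 90.33 TPM across knockdown libraries 1 to 3. The groups overlapped, with knockdown replicate 3 above control replicate 1. limma gave *SFN* a log2 change of −1.03 (adjusted p = 0.195), and −0.92 with the GC trend removed, where it passed the test (adjusted p = 0.0337), as it did with a replicate block (0.0236) and with arrayWeights (0.0071). *SFN* has exons with 62.8% GC.

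*LINC01013*, on the strand opposite to *CCN2*, had 1.24, 1.34 and 2.46 TPM across control libraries 1 to 3, against 0.15, 0.26 and 0.13 TPM across knockdown libraries 1 to 3. The order of the groups was opposite to that of the *CCN2* means, and its mean over the libraries was below the filter.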
